A study of Mus musculus with 9 samples.

Results

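A set of 52633 regions had listed TWIST1 ChIP peaks in OE ChIP libraries 2 and 3 and in neither OE ChIP 1 nor OE ChIP 4. They are 45.1% of the 116734 regions obtained by merging the peaks of the 4 OE ChIP libraries that shared at least 1 bp on chromosomes 1 to 19. The regions were chosen by the presence and absence of peaks in those libraries, and none overlapped a peak of the KO ChIP libraries or of the KO input. Regions with a peak in all 4 OE ChIP libraries and no control peak numbered 10168, or 8.71% of the merged regions, and serve as the comparison throughout.

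The study mapped TWIST1 by chromatin immunoprecipitation and sequencing in mouse embryonic stem cells aggregated into embryoid bodies and differentiated towards neuroepithelium for 3 days. OE cells came from the A2loxcre mESC line, were Twist1-/-, and carried a doxycycline-inducible Flag-Twist1. KO cells were Twist1-/- without the inducible cassette. Both received doxycycline for the last 16 h, both carry the strain label C57BL/6, and both were precipitated with an antibody against TWIST1. Of 9 libraries, 7 peak lists were used (4 OE ChIP, 2 KO ChIP and 1 KO input), while the 2 OE input samples are not used here. Both lines lack endogenous TWIST1, so the TWIST1 of OE cells comes from the induced transgene, and the labels do not say how many clones each line represents. The design text calls the OE libraries biological replicate experiments. Counts over regions describe 1 merged set of peaks and carry no p-value, since regions of the same library are not replicates.

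TWIST1 is a basic helix-loop-helix transcription factor that binds DNA as a dimer, with itself or with an E protein such as TCF3, TCF4 or TCF12. Its dimers contact the E-box, the hexamer CANNTG, and TWIST factors are also known for a double E-box whose hexamers are 5 bases apart. In the mouse embryo TWIST1 acts in cranial mesoderm and neural crest, and in many epithelia its forced expression drives an epithelial-to-mesenchymal transition. ID proteins bind E proteins without contacting DNA and so limit such dimers.

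The sequences under the strongest regions of OE ChIP 2 and 3 that lay in a promoter are shown first, because the E-box is a measure of these regions that their selection did not use. A promoter is here a RefSeq window of GRCm38.p6 from 250 bases before to 50 bases after a transcription start. The peak lists use mm10, which has the same main chromosomes. Each line gives the summit base with 50 bases on each side, 5' to 3' along the gene, with E-boxes in capitals. The 6 strongest regions only in OE ChIP 2 and 3 whose summit had 50 window bases on each side lay at these genes.
Wnt16, chr6:22288073-22288173, plus strand: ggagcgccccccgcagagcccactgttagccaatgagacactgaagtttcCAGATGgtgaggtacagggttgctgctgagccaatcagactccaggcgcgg
Cbx5, chr15:103215328-103215428, minus strand: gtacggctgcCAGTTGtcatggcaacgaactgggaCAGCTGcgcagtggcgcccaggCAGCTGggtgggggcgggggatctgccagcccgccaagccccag
Rad51b, chr12:79297263-79297363, plus strand: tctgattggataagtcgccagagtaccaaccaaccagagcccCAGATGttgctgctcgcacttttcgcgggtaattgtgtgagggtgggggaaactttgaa
Zfp983, chr17:21650399-21650499, plus strand: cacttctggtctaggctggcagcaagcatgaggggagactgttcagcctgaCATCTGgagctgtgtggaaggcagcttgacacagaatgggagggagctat
Zfp710, chr7:80024648-80024748, plus strand: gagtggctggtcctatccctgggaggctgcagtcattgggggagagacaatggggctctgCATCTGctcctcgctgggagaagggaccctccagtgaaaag
Znrd2, chr19:5731724-5731824, minus strand: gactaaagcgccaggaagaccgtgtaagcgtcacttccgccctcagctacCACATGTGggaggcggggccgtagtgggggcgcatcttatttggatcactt
The 3 strongest regions of all 4 libraries placed in the same way were these.
Igsf3, chr3:101376889-101376989, plus strand: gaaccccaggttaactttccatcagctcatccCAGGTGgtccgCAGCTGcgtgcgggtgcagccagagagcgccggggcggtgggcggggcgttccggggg
Bmf, chr2:118544599-118544699, minus strand: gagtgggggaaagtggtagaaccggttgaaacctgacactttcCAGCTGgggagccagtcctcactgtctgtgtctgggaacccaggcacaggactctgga
Upf3a, chr8:13785382-13785482, plus strand: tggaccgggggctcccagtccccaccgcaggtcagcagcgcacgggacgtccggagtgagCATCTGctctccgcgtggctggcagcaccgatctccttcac
All 6 regions only in OE ChIP 2 and 3 held an E-box, and in 4 of them (Wnt16, Rad51b, Zfp983 and Zfp710) it was CAGATG, which reads CATCTG on the other strand. These are only the strongest. Over all 1847 summits of this set placed in the same way, an E-box lay within 20 bp at 38.3% and CAGATG at 9.10%. Wnt16 encodes a secreted WNT ligand, and its region had a fold enrichment of 22.3 in OE ChIP 2 and 30.0 in OE ChIP 3. Fold enrichment is the caller's ratio of fragments at the summit to the local background, with 1 added to each, which lowers folds most where the background is small, as in OE ChIP 1 and 4. Cbx5 encodes the heterochromatin protein HP1 alpha and had folds of 22.6 and 26.2 in OE ChIP 2 and 3. Rad51b, a gene of homologous recombination, had 20.2 and 22.9. Neither OE ChIP 1 nor OE ChIP 4 listed a peak at these promoters. At Igsf3, by comparison, the folds were 439.7, 82.8, 82.5 and 324 in OE ChIP 1 to 4.

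Among the regions only in OE ChIP 2 and 3 with their summit in a promoter window, E-boxes were concentrated at the summits. These were 1847 of the 52633 regions, and the sequence around the other summits was not examined. Of 1847 such summits with 50 window bases on each side, 708 (38.3%) had an E-box centre within 20 bp of the summit, and 368 (19.9%) had one in the flanks 22 to 42 bp away. In the regions of all 4 libraries the shares were 43.6% near the summit and 16.4% in the flanks, over 964 summits. The peaks of the KO input, which were called on DNA without antibody, gave 11.3% near the summit and 11.3% in the flanks over 186 summits. Counted as motifs, since a summit can have several, there were 788 E-boxes near the summits and 412 in the flanks of the regions only in OE ChIP 2 and 3, a ratio of 1.91. The counts were 489 and 172 in the regions of all 4, a ratio of 2.84, and 22 and 22 in the KO input.

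**Figure D1:**
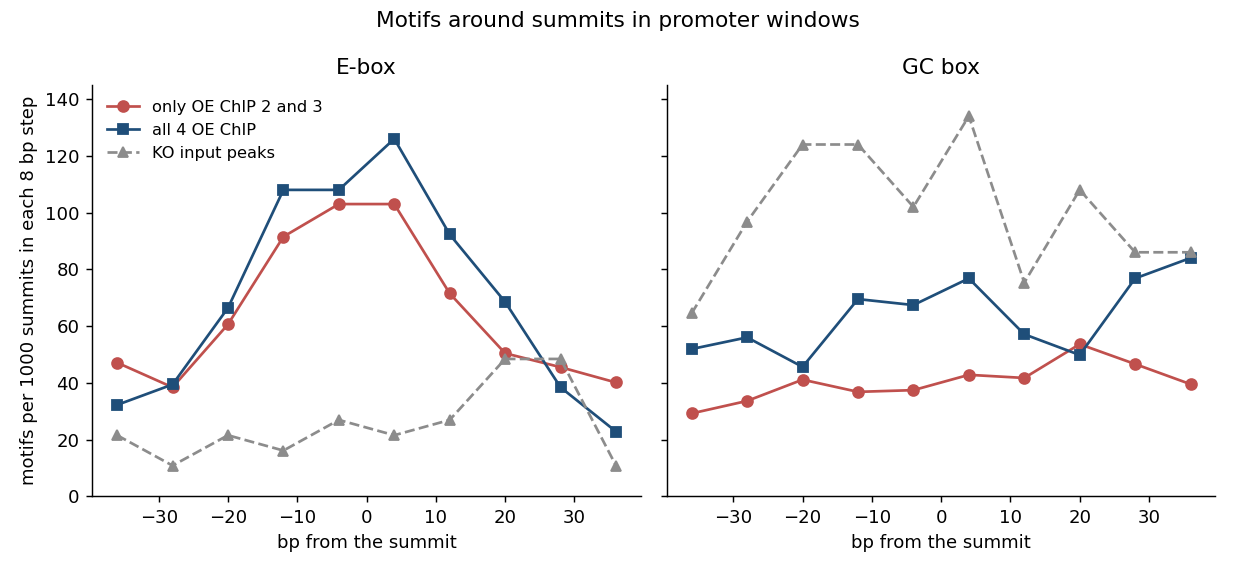
Motifs per 1000 summits in 8 bp steps, against the distance in bp from the summit, for E-boxes (left panel) and GC boxes (right panel). Points are 1847 summits of regions only in OE ChIP 2 and 3, 964 summits of regions of all 4 libraries and 186 KO input peaks. E-boxes reached 103 per 1000 summits next to the summit in the regions only in OE ChIP 2 and 3 and 126 in those of all 4, with no such peak of GC boxes in either set of regions.

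The E-box variants differed in this respect. CAGATG, with both strands counted, occurred 169 times near the summits and 44 times in the flanks of the regions only in OE ChIP 2 and 3, a ratio of 3.84, against 5.56 in the regions of all 4. The ratio of CAGCTG was 2.86 in the regions only in OE ChIP 2 and 3 and 4.57 in those of all 4. That of CACCTG, which reads CAGGTG on the other strand, was 2.15 and 2.85 in the same order of sets. CACGTG, the E-box preferred by MYC and other bHLH zipper factors, was nearly as frequent in the flanks (64) as near the summits (71) of the regions only in OE ChIP 2 and 3. Of the variants counted, the 3 with the highest ratios have CAG on at least 1 strand. The selection of regions had used no sequence.

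The GC box, the ETS motif and the CCAAT box, the commonest other motifs counted, showed ratios near 1. The GC box GGGCGG, bound by SP and KLF factors, had a ratio of 1.05 in the regions only in OE ChIP 2 and 3 and 0.981 in those of all 4. The ETS motif CCGGAA had 1.07 and 1.31, and the CCAAT box, bound by NF-Y, had 0.990 and 1.08, in the same order of sets. The double E-box was rare, with 7 centres near the summits and 4 in the flanks of the regions only in OE ChIP 2 and 3, against 13 and 0 in the regions of all 4.

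E-box content followed the strength of the region. Strength is the mean, over OE ChIP 2 and 3, of the percentile of a region's fold in the list of each library. Among the regions only in OE ChIP 2 and 3 that lay in a promoter, 464 of 853 (54.4%) of those above the median strength of all such regions had an E-box within 20 bp of the summit, and 24.0% had one in the flanks. Below that median 244 of 994 (24.5%) had one near the summit and 16.4% in the flanks. E-boxes were thus more frequent in the stronger regions both near the summit and in the flanks. Regions listed in a single library and without a control peak had 32.4% near the summit and 25.1% in the flanks where the library was OE ChIP 2, over 219 summits. Where it was OE ChIP 3, they had 20.7% and 13.2%, over 266 summits.

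Whole promoters differed between the sets in base composition. A summit of a region only in OE ChIP 2 and 3 lay in 2723 of the 20056 promoter windows, at 2560 genes, and a summit of a region of all 4 lay in 1355 windows, at 1278 genes. No window held both. Windows have 300 bases and the sets are separate merged regions, so this was likely in advance. At 5383 genes both kinds were assigned, as given below. CpG dinucleotides had a median of 18 in windows with a region only in OE ChIP 2 and 3, 28 in windows with a region of all 4 and 14 in all windows. Windows with at least 20 CpG made up 43.6%, 79.9% and 37.1% of these sets. The GC box was found in 61.4% of the windows with a region only in OE ChIP 2 and 3, in 80.1% of those with a region of all 4 and in 47.0% of all windows. Within windows of at least 20 CpG these shares were 74.9%, 87.1% and 81.5%, the first below that of all windows. With fewer CpG they were 51.0%, 52.4% and 26.7%, with both sets nearly alike.

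The ETS motif went the other way. It was in 32.6% of the windows with a region only in OE ChIP 2 and 3, in 23.8% of those with a region of all 4 and in 19.1% of all windows. Within windows of at least 20 CpG the shares were 42.5%, 25.5% and 31.1%, with all windows between both sets. The CCAAT box was in 44.5%, 34.8% and 38.1% of the windows. An E-box of any kind was in 75.1% of the windows of both sets and in 68.7% of all windows, with a CpG content that differed between the sets. Within windows of at least 20 CpG the E-box shares were 66.1%, 73.2% and 55.8%, and with fewer CpG they were 82.0%, 82.8% and 76.3%. CAGATG was in 17.4% of the windows with a region only in OE ChIP 2 and 3, in 17.2% of those with a region of all 4 and in 14.6% of all. It was lower in the windows with a region only in OE ChIP 2 and 3 than in those with a region of all 4 within both CpG classes, at 10.4% against 13.2% with at least 20 CpG and at 22.9% against 33.0% with fewer. Windows with fewer than 20 CpG held the double E-box in 1.37%, 5.13% and 0.872%. The GATA factor motif AGATAA (5.88%, 2.73% and 9.58%) and the homeodomain core TAATTA (2.86%, 0.886% and 4.48%) were less frequent in both sets than in all windows. Within windows of fewer than 20 CpG the GATA motif was in 8.20%, 4.4% and 13.8% and TAATTA in 4.30%, 1.47% and 6.63%. Within windows of at least 20 CpG the GATA motif was in 2.86%, 2.31% and 2.46% and TAATTA in 1.01%, 0.739% and 0.847%. There both motifs were slightly more frequent with a region only in OE ChIP 2 and 3 than in all windows. With a region of all 4 they were slightly less frequent. All motifs were searched on both strands. The named E-box variants and the double E-box are also counted as E-boxes. A match is a string of letters, and not a binding site.

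The split between the libraries followed the length of their lists and the background behind their peaks, from which depth can be approached only indirectly. The lists held 104488 and 85676 peaks on chromosomes 1 to 19 in OE ChIP 2 and 3, and 21811 and 13784 in OE ChIP 1 and 4. The background recovered from fold and p-value was 5.38 and 5.29 fragments in OE ChIP 2 and 3, 1.00 and 1.20 in OE ChIP 1 and 4, 4.73 and 5.09 in KO ChIP 2 and 3, and 6.46 in the KO input. At those backgrounds the weakest listed summit had 15 fragments in OE ChIP 2 and in OE ChIP 3, 7 in OE ChIP 1 and 8 in OE ChIP 4. The lowest listed folds at these commonest backgrounds were 2.51 and 2.54 in OE ChIP 2 and 3, and 3.99 and 4.09 in OE ChIP 1 and 4. Where the local background was higher, lower folds were listed, down to 2.13 and 1.75 in OE ChIP 2 and 3 for the regions described here. The selection of these regions follows the same split of libraries as the background, so absence of binding in OE ChIP 1 and 4 and a lower power to list it cannot be told apart. The KO ChIP libraries, with backgrounds near those of OE ChIP 2 and 3, listed 81 and 52 peaks. Their weakest listed summits at those backgrounds had 20 and 23 fragments, more than the 15 of OE ChIP 2 and 3. The listing limits were therefore not alike. Only 302 regions of OE ChIP 2 and 3 were removed for a control peak, 298 of them for a peak of the input.

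Fold enrichment in the regions only in OE ChIP 2 and 3 was low. These are the values that chose them, given as a description. The median fold was 5.64 in OE ChIP 2 and 5.11 in OE ChIP 3, with 5% to 95% ranges of 3.29 to 14.3 and 3.18 to 12.6. The summits held a median of 35 and 32 fragments. The regions of all 4 libraries had medians of 16.1 and 15.1 in the same libraries, and 15.5 and 10.9 in OE ChIP 1 and 4. The regions only in OE ChIP 2 and 3 were also narrower, with a median width of 551 bp against 1139 bp in those of all 4. Exactly 1 peak of each library made up 96.2% of the regions only in OE ChIP 2 and 3.

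**Figure D2:**
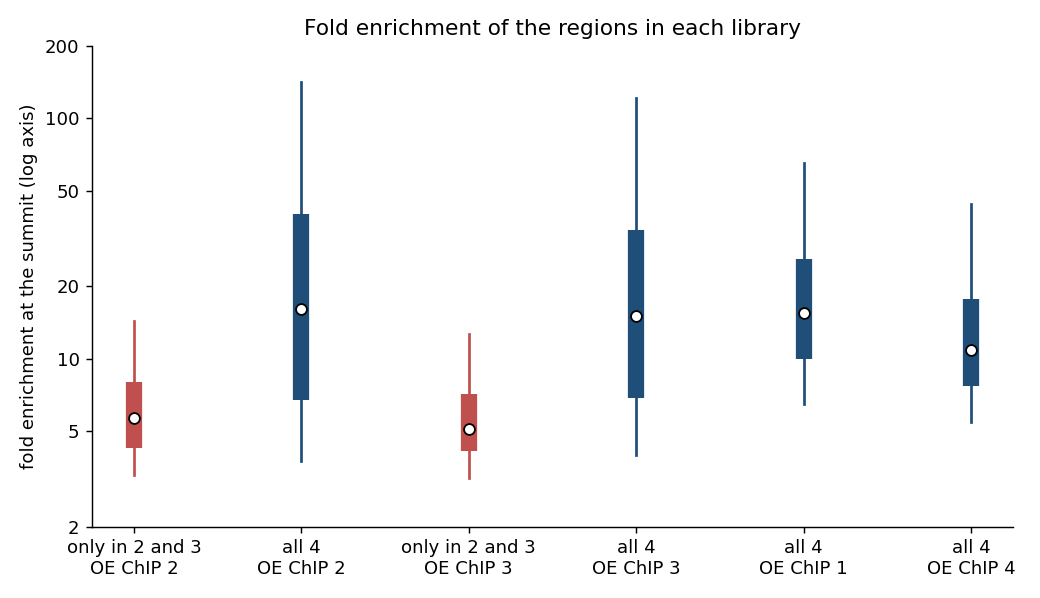
Fold enrichment at the summit (log axis) in each library for regions only in OE ChIP 2 and 3 and for regions of all 4 libraries. Dots are medians, thick bars run from the 25th to the 75th percentile and thin lines from the 5th to the 95th. The medians of regions only in OE ChIP 2 and 3 are 5.64 and 5.11, and those of regions of all 4 in the same libraries are 16.1 and 15.1.

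Support by further libraries followed strength. The 70426 regions with a peak in both OE ChIP 2 and 3 and no control peak were ranked by strength and divided into 10 equal bins. Regions only in OE ChIP 2 and 3 made up 92.9% of the weakest bin, 86.7% of the fifth and 10.1% of the strongest, which still held 712 of them. Regions of all 4 made up 4.71%, 7.06% and 67.0% of the same bins. Over all bins, 74.7% of the 70426 regions were in neither OE ChIP 1 nor 4, and 7625 had a peak in exactly 1 of these libraries.

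**Figure D3:**
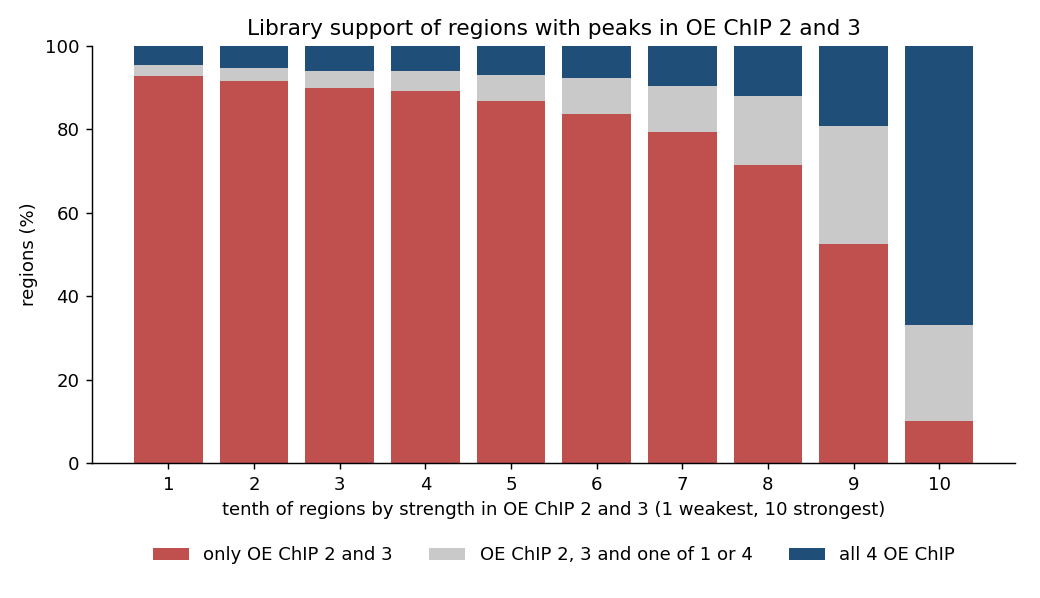
Share in % of the 70426 regions with peaks in OE ChIP 2 and 3, in 10 bins of strength, that were only in these libraries, had a peak in exactly 1 of OE ChIP 1 and 4, or were in all 4. The share only in OE ChIP 2 and 3 is 92.9% in the weakest bin and 10.1% in the strongest.

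The recovered fragment counts were set against the listing limits of OE ChIP 1 and 4 at their commonest backgrounds. The ratio of summit fragments to background needed for listing was 7 in OE ChIP 1 and 6.67 in OE ChIP 4. In 15304 regions only in OE ChIP 2 and 3 (29.1%) the lower ratio of OE ChIP 2 and 3 lay above both limits. Among the regions of all 4 with recovered counts the share was 75.3%. Only 427 (0.811%) of the regions only in OE ChIP 2 and 3 lay above 3 times those limits, against 42.8% of the regions of all 4. Counting error at a few fragments per site was not modelled here.

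Overlap of a peak of OE ChIP 2 with one of OE ChIP 3 was part of the selection, which by itself keeps their summits close, so the following values are a description. The summits were a median of 25 bp apart and within 100 bp in 83.5% of the regions, against 13 bp and 87.1% in the regions of all 4. Spearman's rho between the folds of OE ChIP 2 and 3 was 0.752 across the 52633 regions and 0.966 across the 10168 of all 4, a description across regions that share libraries and a cutoff. The median ratio of fold, OE ChIP 2 over OE ChIP 3, was 1.07, with a 5% to 95% range of 0.690 to 1.74. A peak of OE ChIP 1 or 4 came within 1 kb of 2838 regions (5.39%), and the nearest region of all 4 was a median of 41.7 kb away. Of the regions only in OE ChIP 2 and 3, 20.4% lay within 10 kb of a region of all 4 and 26.8% lay over 100 kb from one.

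Regions only in OE ChIP 2 and 3 were placed about gene ends like the merged regions as a whole, and the regions of all 4 were nearer to them. The summit was no more than 1 kb from the end of a protein-coding gene in 13.2% of them, against 30.1% of the regions of all 4 and 13.9% of all merged regions. Deeper inside genes lay 43.3% of the regions only in OE ChIP 2 and 3 and 36.3% of those of all 4. Between genes lay 43.5% and 33.6%. The median distance to a transcription start was 27.4 kb for the regions only in OE ChIP 2 and 3 and 18.3 kb for those of all 4, leaving out chromosome 18, which has no promoter windows. The share near a gene end was lower in the regions only in OE ChIP 2 and 3 on 19 of 19 chromosomes, with 10.7% to 17.7% against 23% to 35.4%. The sets also differed in width, and the share rose with it. With each set split by width, it was 8.76% and 17.7% in the narrower and wider regions only in OE ChIP 2 and 3. In those of all 4 it was 27.2% and 33.0%. The median widths were 417, 777, 842 and 1609 bp in that order. The ratio of the counts of both sets ranged from 4.74 to 5.90 over the chromosomes.

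This difference was larger among weaker regions. In the weakest bin, 16.3% of the regions only in OE ChIP 2 and 3 and 66.6% of those of all 4 were near a gene end. In the strongest bin the shares were 7.58% and 8.90%. The gap was also small, at 13.9% against 15.3%, where a library counted only if its summit lay within 100 bp of that of OE ChIP 2 or 3. With the same number of peaks taken from each OE ChIP library it was 8.52% against 11.4%. Of the KO input peaks, 42.2% were near a gene end. Whether DNA recovered without the antibody contributes to the weaker regions of all 4 was not tested.

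**Figure D4:**
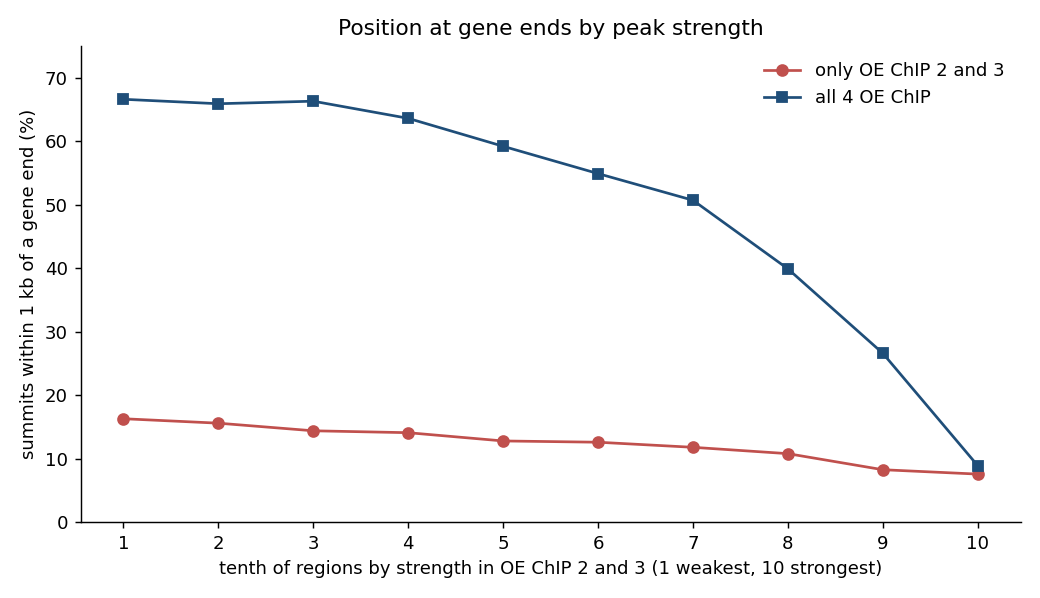
Share in % of summits within 1 kb of a gene end, in 10 bins of strength in OE ChIP 2 and 3, for regions only in OE ChIP 2 and 3 and for regions of all 4 libraries. The curves lie at 16.3% and 66.6% in the weakest bin and at 7.58% and 8.90% in the strongest.

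The 10 strongest regions only in OE ChIP 2 and 3 lay inside genes or at least 7.38 kb from one, with none within 1 kb of a gene end. In the strongest bin 7.58% of these regions were near a gene end, and 10 regions are too few to set against that share. Agpat4, which encodes an acyltransferase of phospholipid synthesis, held a region with folds of 63.3 in OE ChIP 2 and 42.6 in OE ChIP 3. Iqsec3, an exchange factor for ARF GTPases, held one with 70.1 and 38.5. A region at chr8:96677614-96678424 lay 789.6 kb from the nearest gene and had 64.5 and 35.9. Dpm1, a subunit of dolichol phosphate mannose synthase, held one with 35.6 and 51.2. Regions inside Ttc29, Faf1 (an adaptor with a FAS-associating domain) and Schip1, and outside 2510009E07Rik and Klf3 (a Krüppel-like repressor), had folds of 35.1 to 46.7. The last of the 10, 275 kb from any gene on chromosome 11, had 51.1 and 34.6.

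At the limits of the selection were the regions only in OE ChIP 2 and 3 with the lowest mean −log10 of the q-value. They lay near Tnrc6c (folds of 2.51 and 2.54 in OE ChIP 2 and 3), in Pitpnc1 (2.66 and 2.54) and in Camk1d (2.51 and 2.70). The strongest regions of OE ChIP 2 and 3 that missed the selection through a peak in only 1 other library included one in Dctn2, with 16.4, 131 and 82.6 in OE ChIP 1, 2 and 3. Another, near Spns3, had 11.0, 68.3 and 86.5. The strongest regions of all 4 lay at Medag (744, 1699, 1699 and 576 in OE ChIP 1 to 4), Ndc1 (896, 833, 762 and 550.3) and Kdf1 (600.4, 830.5, 904 and 419).

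Twist1 itself had both kinds of region. The region over the gene was in all 4 libraries, with folds of 41.9, 4.39, 4.45 and 48.1 in OE ChIP 1 to 4. It was high in OE ChIP 1 and 4 and low in OE ChIP 2 and 3, the reverse of the selection described here, and reads from the Flag-Twist1 transgene cannot be told apart from chromatin at the gene. A region only in OE ChIP 2 and 3 lay 4.35 kb from the gene, with folds of 11.6 and 10.5, and another lay 6.98 kb away, with 7.37 and 8.90.

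Regions were assigned to the gene around their summit, or failing that to the nearest gene up to 100 kb away, which says nothing about the gene it acts on. Of 20665 protein-coding genes, 14214 (68.8%) had at least 1 region only in OE ChIP 2 and 3, and 6370 (30.8%) had at least 1 of all 4. A summit within 1 kb of the gene's own ends was found at 6992 genes (33.8%) for regions only in OE ChIP 2 and 3 and at 3337 (16.1%) for regions of all 4. Regions only in OE ChIP 2 and 3 were the sole kind at 8831 genes, while 5383 genes had both kinds and 987 had regions of all 4 alone. Of the genes with a region of all 4, 84.5% also had one only in OE ChIP 2 and 3, and 37.9% the other way round. Over all genes there were 5.17 regions only in OE ChIP 2 and 3 per region of all 4.

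Some genes collected many regions. Gse1, which encodes a coiled-coil protein found in histone deacetylase complexes, had 66 regions only in OE ChIP 2 and 3 and 19 of all 4. Msi2, an RNA-binding protein of stem and progenitor cells, had 53 and 7. Septin9, a cytoskeletal GTPase, had 40 and 8, and Rbfox3, the neuronal splicing factor NeuN, had 36 and 3. Prex1, Grik3, Nav2, Zfp64, Zmiz1 and Clybl had 33 to 35 each and 4 to 8 of all 4. Grik3 encodes a kainate receptor subunit and Prex1 an exchange factor for RAC. Their lengths ran from 62.3 kb for Zfp64 to 651 kb for Nav2. The median length was 17.5 kb for all genes and 24.0 kb for genes with a region only in OE ChIP 2 and 3. All the genes named here were thus long, although their order by number of regions was not that of their length. Whether length accounts for the counts was not tested. In all, 775 genes had 10 or more such regions and 4735 had exactly 1.

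Gene lists are described by counts beside the shares of all genes, and 447 of their 452 different genes were matched. All 20 lists exceeded the 68.8% of all genes with a region only in OE ChIP 2 and 3. Only 11 of 20 exceeded the 33.8% at own ends, while 17 of 20 exceeded the 16.1% at own ends for regions of all 4.

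In a list of bHLH genes (Twist1, Twist2, E proteins, ID inhibitors and other bHLH factors such as Hand1 and Bhlhe40), 15 of 17 genes had a region only in OE ChIP 2 and 3, and 9 had one at their own ends. Twist2, the paralog of Twist1, held 7, the strongest with folds of 23.5 and 16.4 in OE ChIP 2 and 3. The E protein genes Tcf3 and Tcf12 had 11 each, and the strongest near Tcf12 had folds of 12.7 and 13.7. Id2, an inhibitor of E proteins, had 7, with 14.6 and 16.5 at the strongest, which lay 723 bp from the gene. The list as a whole had 3.46 regions only in OE ChIP 2 and 3 per region of all 4, below the 5.17 of all genes.

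Pluripotency genes all had such a region, 20 of 20, and 7 had one at their own ends. Esrrb, an orphan nuclear receptor of naive stem cells, had 22, Sox2, a core factor of stem cells and neural progenitors, had 19, and Tbx3 had 17. The regions of Sox2 and Esrrb lay away from the gene ends, and Otx2, needed for forebrain and for exit from naive pluripotency, had 12. The strongest at Tbx3 had folds of 15.2 and 22.7. With 149 regions only in OE ChIP 2 and 3 and 20 of all 4, the list had a ratio of 7.45.

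Genes of the primitive streak and mesoderm had the lowest ratio, 2.48, with regions at 19 of 20 genes and at the own ends of 7. For regions of all 4 the own-end share was 45.0%. Eomes, a T-box factor of the streak, had 6 regions only in OE ChIP 2 and 3, and Mixl1, a homeobox gene of the streak, had 1, with folds of 14.3 and 9.38 inside the gene. The endoderm genes had them at 12 of 15, at the own ends of 6, and no region of all 4 at an own end. Foxa2 had 8 and no region of all 4, and Sox17, Cxcr4 and Prdm1 had 4 to 8. Cardiac genes had them at 16 of 18 and at 5 own ends, with a ratio of 7.25, and the strongest, with 28.4 and 17.5, lay 78.5 kb from Mef2c.

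Neural genes were covered about as fully. In the list of neural progenitor and neurogenic genes, regions only in OE ChIP 2 and 3 were given to 22 of 23, and lay at 10 own ends. Sox1 had 14, Pou3f1 had 13 and Neurog1, a proneural bHLH factor, had 10. The strongest near Pou3f1 had folds of 24.8 and 20.2. Neural crest genes had them at 17 of 18 and at 10 own ends (55.6%), with 21 at Pax7 and 14 at Msx1, a homeobox gene that had none of all 4. Synaptic and neuronal genes, with a median length of 422 kb, had them at 22 of 23 and at 7 own ends. That list had the highest ratio, 7.75, with 27 at Shank2 and 15 at Cntnap2.

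For mesenchyme and EMT genes, regions only in OE ChIP 2 and 3 were given to 23 of 24 genes, and lay at the own ends of 5 (20.8%), close to the 21.1% of the list of blood and other cell types, while regions of all 4 lay at 45.8%. Zeb2, a repressor of E-cadherin, had 11, and Cdh1, which encodes E-cadherin, had 9. Fn1 (fibronectin) had 7, the strongest with folds of 16.5 and 15.7, and Col3a1, a fibrillar collagen, had 1 with 17.2 and 19.2. Cadherin and junction genes had them at 23 of 25 and at 9 own ends, led by Cdh4 with 32 and by a region with folds of 26.6 and 17.5 at 88.2 kb from Cdh20. Migration and guidance genes had them at 30 of 31 and at 9 own ends. Slit3, a guidance ligand, had 28, and Efnb2, an ephrin, had 15, the strongest with 29.2 and 22.2 inside the gene.

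Each signalling list exceeded the 68.8% of all genes with regions only in OE ChIP 2 and 3, as all 20 lists did. FGF genes had them at 21 of 21 and at 9 own ends, with 20 at Spred2 and 10 at Spry2, both inhibitors of the pathway. WNT genes had them at 26 of 28 and at 7 own ends, and the transcription factor gene Lef1 had 18, the strongest with folds of 18.2 and 22.6. Notch genes had them at 19 of 22 and at 7 own ends. The Notch target Hes1 and the coactivator gene Maml3 had 19 each. BMP, TGF-beta and Nodal genes had them at 27 of 29 and at 8 own ends, with 20 at the inhibitor Smad6 and 16 at the transducer Smad3. In the Notch, WNT and BMP lists the own-end share was higher for regions of all 4 (45.5%, 35.7% and 44.8%) than for those only in OE ChIP 2 and 3. The shares for those only in OE ChIP 2 and 3 were 31.8%, 25% and 27.6%, below the 33.8% of all genes. The FGF list was above it, at 42.9%.

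Hox genes were given regions of all 4 at about the share of all genes, 31.6% against 30.8%. At their own ends the share was higher than that of all genes, 31.6% against 16.1%. Regions only in OE ChIP 2 and 3 were given to 31 of 38 genes, 16 had one at their own ends, and 21 had these regions with none of all 4. Hoxb1 had 6, with no region of all 4, and the strongest near Hoxb13 had folds of 13.2 and 18.1. Hox genes lie in clusters, so neighbouring members share the stretch from which regions are given to them.

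Ribosomal protein genes had a region only in OE ChIP 2 and 3 at 28 of 32, and at the own ends of 24 (75%), the highest share of any list, with low median folds of 4.39 in OE ChIP 2 and 4.61 in OE ChIP 3. Rpl22 had one at its own end with 16.8 and 15.4. Chromatin genes of the CHD, NSD and BAF families had them at 21 of 24 and at 7 own ends, with 23 at the remodeller gene Chd9 and 14 at Chd7. Cell cycle, p53 and Myc genes had them at 18 of 18 and at 9 own ends, and Myc had 10 with none of all 4. The list of blood and other cell types had them at 14 of 19 and at 4 own ends (21.1%), with 8 at Pecam1 and 7 at Runx1.

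**Figure D5:**
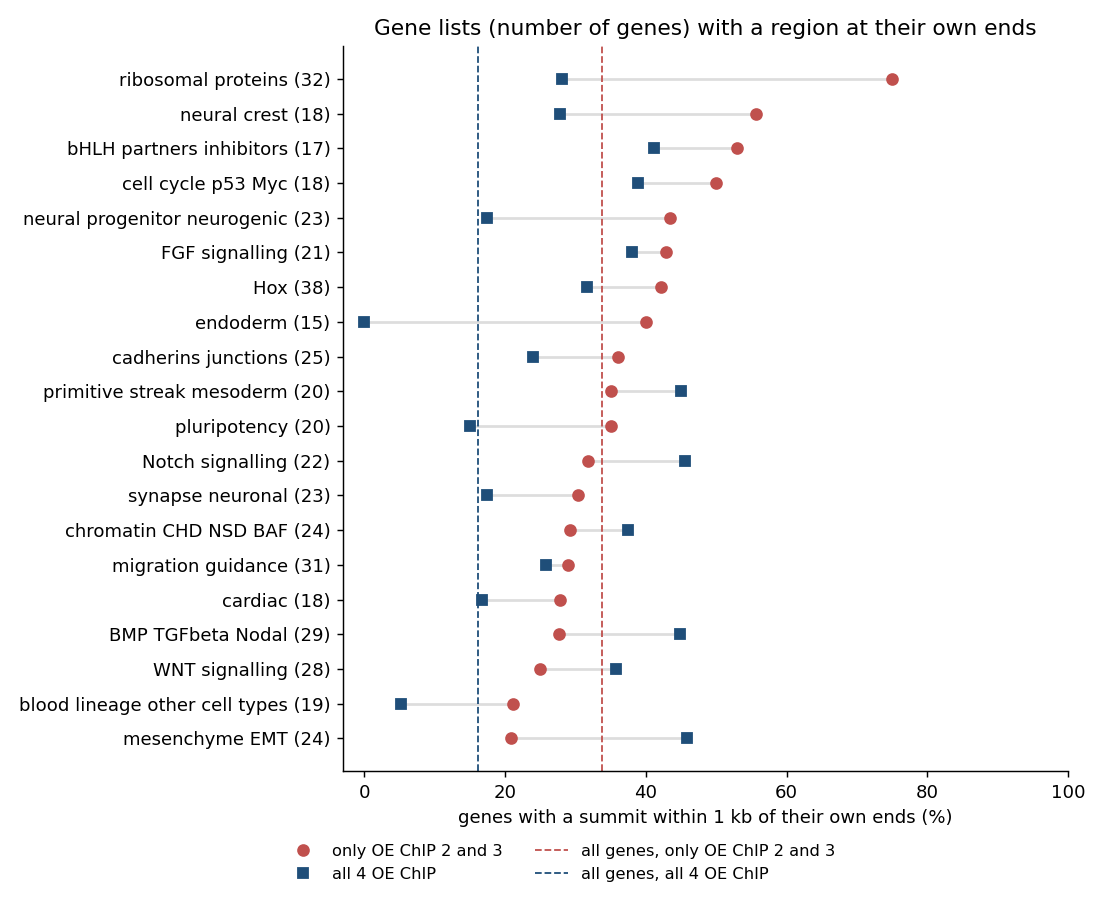
Share in % of the genes of each list (number of genes in brackets) with a summit within 1 kb of the gene's own ends, for regions only in OE ChIP 2 and 3 (circles) and of all 4 libraries (squares). Dashed lines give all 20665 genes, at 33.8% and 16.1%. Ribosomal protein genes lie at 75% and mesenchyme and EMT genes at 20.8% for regions only in OE ChIP 2 and 3.

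Of 919 hairpins in the RefSeq table of these chromosomes, 61 lay under a region only in OE ChIP 2 and 3 and 46 under a region of all 4. As a share of the regions, 56 of 52633 (0.106%) only in OE ChIP 2 and 3 lay over a hairpin, against 42 of 10168 (0.413%) of all 4. The genes shown were chosen after their values were seen. The mir-302 cluster, which is highly expressed in pluripotent cells, had its Mir302b, Mir302c and Mir302a hairpins under a single region at chr3:127544457-127545618, with folds of 21.5 in OE ChIP 2 and 14.5 in OE ChIP 3. The mature sequences of these hairpins other than miR-302a-3p, and of Mir196b, which lies in the HoxA cluster, are printed 5' to 3' with the seed (bases 2 to 8) in capitals, to show which of them share a seed.
mmu-miR-302b-5p, chr3:127545238-127545260, plus strand: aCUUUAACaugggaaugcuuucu
mmu-miR-302c-5p, chr3:127545368-127545389, plus strand: gCUUUAACaugggguuaccugc
mmu-miR-302a-5p, chr3:127545501-127545522, plus strand: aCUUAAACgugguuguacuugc
mmu-miR-302b-3p, chr3:127545275-127545297, plus strand: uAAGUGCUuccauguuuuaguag
mmu-miR-302c-3p, chr3:127545406-127545427, plus strand: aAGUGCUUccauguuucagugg
mmu-miR-196b-5p, chr6:52230129-52230150, minus strand: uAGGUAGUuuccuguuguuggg
mmu-miR-196b-3p, chr6:52230094-52230115, minus strand: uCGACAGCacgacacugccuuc
The 5p arms of miR-302b and miR-302c shared a seed, from which that of miR-302a differed. The 3p arms of miR-302b and miR-302c both hold AAGUGCUU, and their seeds AAGUGCU and AGUGCUU are offset by 1 base within it. Mir196b had folds of 5.02 and 7.15 in OE ChIP 2 and 3, and Mir9-1, a miRNA of neural progenitors, had 2.82 and 3.81. Mir196b lay near the middle of the lists of OE ChIP 2 and 3 in strength, with a mean percentile of 59.4, and Mir9-1 was among the weaker regions, at 12.2. Mir130b and Mir301b shared a region with 4.99 and 5.24, and Mir874 had 12.7 and 18.3. Mir141 and Mir200c, members of the family that targets Zeb1 and Zeb2, lay instead under a region of all 4, with 6.49, 13.3 and 6.81 in OE ChIP 1, 2 and 4 and the highest of the 4 folds in OE ChIP 3.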

How the data were processed

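The authors deposited a MACS2 peak list for each library, with no pooling of samples. The submitters' processing notes name Trimmomatic, BWA, Picard and MACS2, with builds GRCm38.p5 and mm10. Versions, settings and the caller's control were not given in the sources used here. The caller's control and any difference in depth can change which peaks are listed. Each deposited peak has a fold enrichment (a linear ratio over local background), −log10 of the p-value and −log10 of the q-value, and a score derived from the q-value. The deposited q-values were at most 0.01, and the deposited score column was not used.

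Python 3.11.15 was used with pandas 2.3.3, scipy 1.17.1, numpy 2.4.6 and, for the figures, matplotlib 3.10.9. Groups came from the sample titles. Merging joined peaks of the 4 OE ChIP libraries on chromosomes 1 to 19 with 1 bp or more in common, and each region took the peak with the highest fold of each library. Its summit is that of OE ChIP 2 or 3, whichever has the higher fold. No read totals were used. The whole-number fragment count and background behind each peak were recovered from fold and p-value, within 0.01 of the deposited −log10 p. Genes and promoter windows came from RefSeq tables of GRCm38.p6 without a genome, so motifs were counted in promoter windows in place of all summits. The windows were checked on 701 overlapping pairs on opposite strands, of which 701 had matching sequence. Shares of summits carry no interval in the text, and regions are not replicates.

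The regions, the gene lists and the rule for named genes were chosen with earlier results of these data known. Named genes are those at the 10 strongest regions, the 10 with most regions, the 3 with the strongest region and the 2 with most regions of each list (not all are printed), the regions at the limits of the selection, the 3 strongest regions of all 4, and Twist1. Printed sequences are those of the strongest regions with 50 bases of promoter window on each side, since a rule that needed a genome could not be applied. The comparisons are counts, medians and shares without a test. Alternatives covered overlap, q-value limit, list length, control peaks, distances, chromosomes and leaving out each replicate. Merging, recovery of fragment counts, placing and motif counts were tested on simulated data.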

Additional observations from a re-analysis of the deposited data

How the results depend on the processing

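The number of regions only in OE ChIP 2 and 3 was 52633. It stayed within 1.5 times of that under 11 of 14 alternatives. A limit of −log10 q of at least 10 left 32978. The same number of peaks from each OE ChIP library left 4026, of which 2660 (66.1%) overlapped a region of the full lists, beside 5091 regions of all 4. Leaving out 1 library at a time gave 52633 to 84428, the highest without OE ChIP 3. The count depends on list length, and read depths are not given in the sources used. The share near a gene end, 13.2%, was 13.8% where peaks had to share at least 50% of the shorter peak and 13.9% with summits within 100 bp. It was 12.8% at −log10 q of at least 10, 8.52% at equal list length, and 12.7% with no peak of OE ChIP 1 or 4 within 1 kb. With gene ends of 0.5 kb and 2 kb it was 9.35% and 19.7%, and leaving out 1 library gave 11.8% to 13.4%. It was below the share in regions of all libraries under 17 of 17 alternatives. The number of genes, 14214, was 2707 at equal list length and 14214 to 16124 without 1 library. The share of promoter summits with an E-box within 20 bp, 38.3%, was 51.7% at −log10 q of at least 10 and 35.2% to 40.2% without 1 library, these alternatives having been chosen after seeing the data. It was below that of regions of all libraries under 7 of 7, none of which matched the sets for strength. At −log10 q of at least 10 the share in regions of all libraries was 54.4%, close to the 51.7%. Apart from list length, where fewer peaks enter by construction, the cause of these shifts was not tested. The planned share of all summits with CAGATG was not run, since no genome was given. No paired analysis was possible because the results come from no test.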
